A study of Mus musculus with 6 samples.

Results

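The BCL2 family of apoptosis regulators was followed in RNA from mouse medulloblastoma and control cerebellum. The genes were chosen by symbol in the authors' deposited table, where all 10 named members were found among 43629 genes: the pro-survival genes Mcl1, Bcl2l1 and Bcl2, the effectors Bax and Bak1, and the BH3-only genes Bid, Bcl2l11, Pmaip1, Bbc3 and Bad. Tumors came from Math1-Cre SmoM2 mice, in which Cre driven by the Math1 (Atoh1) promoter acts in the granule neuron progenitor lineage and switches on SmoM2, an active form of the Hedgehog receptor component Smoothened (3 libraries, labelled Tumor). Controls were cerebella with the same heterozygous SmoM2.c/wt allele and no Cre (3 libraries, labelled WT), so both groups carried the SmoM2 allele. All libraries came from female C57BL/6 mice at postnatal day 35, and the design text calls the controls littermates. Whether each library is a separate mouse is not stated in the labels, so the error behind each p-value is the variation among these samples, and it may be only technical.

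Proteins of this family decide whether the outer membrane of the mitochondrion stays intact. The effectors BAX and BAK form pores that release cytochrome c and so start the caspase cascade, pro-survival proteins such as BCL2, BCL-XL (encoded by Bcl2l1) and MCL1 hold the effectors and the BH3-only proteins in check, and BH3-only proteins such as BIM (Bcl2l11), BID, NOXA (Pmaip1), PUMA (Bbc3) and BAD block the pro-survival proteins or act on the effectors. In the developing cerebellum BAX-dependent death removes surplus neurons, and granule neuron progenitors that respond to Hedgehog signalling are the cells from which this tumor grows.

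Values are normalized counts, that is, reads divided by 1 size factor per library, and log2 fold changes are tumor minus control on log2(value + 1), with limma's standard error (SE). A gene was called where its adjusted p, by the method of Benjamini and Hochberg over the 22117 genes tested, was under 0.05. Libraries held 69550200, 49969867 and 52041234 reads in tumors and 47163711, 44902217 and 49455221 reads in controls. The label check gave Smo at 4779, 5622 and 4506 normalized counts in tumors against 964.8, 1036 and 1036 in controls, Gli1, a target of the pathway, at 4285, 6624 and 3860 in tumors against 438.9, 419.7 and 461.9 in controls, and Atoh1 at 4664, 4541 and 3879 in tumors against 1.12, 4.76 and 11.8 in controls. Cell type markers differed between the groups. All 8 granule neuron progenitor markers and all 8 microglia and macrophage markers were called higher in tumors, while all 8 markers each of mature granule neurons, Purkinje cells, GABAergic interneurons and oligodendrocytes were called lower. So were 6 of 8 astrocyte markers, 7 of 8 endothelial markers and 7 of 8 choroid plexus markers, while 1 astrocyte marker was called higher. Of 7 lymphocyte and granulocyte markers tested 1 was higher and 1 lower. No marker was at 0 in all libraries of a group. These are bulk samples, so fewer cells of a type and less RNA per cell cannot be told apart for any gene below. The share of reads from mitochondrial genes was 2.94%, 2.49% and 3.79% in tumors against 6.94%, 6.84% and 7.06% in controls. The part of cell composition and of this share in the differences below was not tested.

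Of the 10 members, 6 were called higher in tumors, 1 was called lower and 3 were not called. Bid, Pmaip1, Bcl2l11 and Bax rose more than 2-fold, Bak1 and Mcl1 rose by less, and Bcl2l1 fell. Bcl2, Bbc3 and Bad did not pass the test. The comparison changed much of the transcriptome: 62.1% of all genes tested were called, 30.6% higher and 31.5% lower, and 17.5% were called at least 2-fold higher. The median log2 fold change was 0.68 over the 10 members and -0.02 over all genes tested, and the median size of change without its sign was 0.68 for the members and 0.86 for all genes. Tumor and control values did not overlap for 9 members, 8 with tumors above and 1 with tumors below. Groups that did not overlap were also found for 67.7% of all genes tested, 33.2% with tumors above and 34.5% with tumors below.

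**Figure D1:**
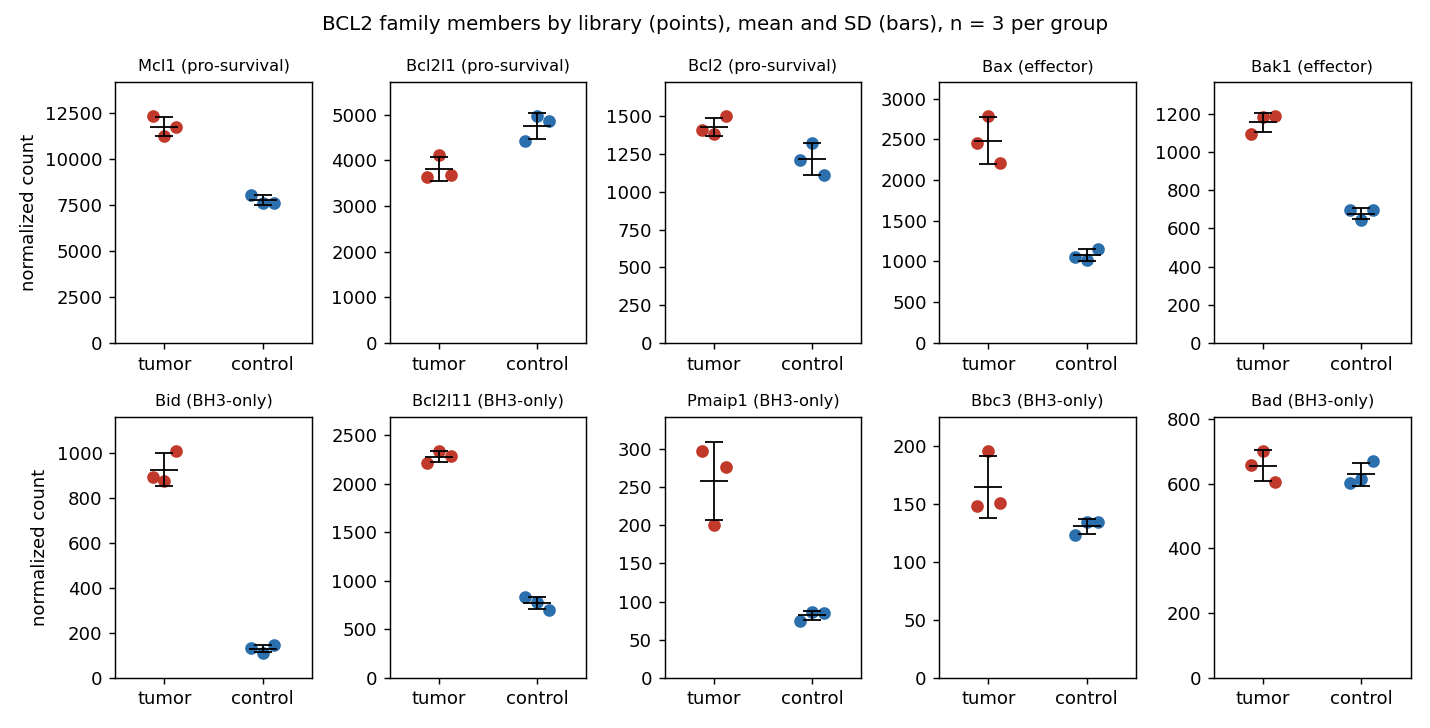
Normalized count (linear y axis from 0) of each member in the tumor libraries (left in each panel) and the control libraries (right). Each point is 1 library, and bars give the mean and SD of n = 3 per group. Bid, Bcl2l11, Pmaip1 and Bax show the widest gaps, Bcl2l1 is the member with tumors below controls, and the points of Bad overlap.

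The 250 bases before an annotated start are shown for Bid, Bcl2l11 and Bax. This pair of BH3-only genes and this effector were each called higher in tumors. The display marks the GC boxes, bound by SP1-type factors, and E-boxes, bound by MYC-type factors, in these windows. They are from RefSeq (build GRCm38.p6), written 5' to 3' on the strand of the gene. Capitals mark each GC box (GGGCGG or its reverse complement) and each E-box CACGTG. Bid, on the minus strand at chr6:120916825-120917074, holds 3 GC boxes and no CACGTG. Bcl2l11, on the plus strand at chr2:128125788-128126037, also holds 3 GC boxes and no CACGTG. Another Bcl2l11 window, at chr2:128127325-128127574, holds 2 GC boxes and is not shown. Bax, on the minus strand at chr7:45466899-45467148, holds 2 GC boxes and 1 CACGTG.
Bid: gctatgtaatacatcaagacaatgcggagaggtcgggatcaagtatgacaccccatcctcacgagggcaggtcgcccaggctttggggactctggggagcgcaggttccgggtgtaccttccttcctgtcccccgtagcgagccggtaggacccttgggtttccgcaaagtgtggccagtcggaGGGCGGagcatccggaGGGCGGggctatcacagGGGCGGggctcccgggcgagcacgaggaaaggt
Bcl2l11: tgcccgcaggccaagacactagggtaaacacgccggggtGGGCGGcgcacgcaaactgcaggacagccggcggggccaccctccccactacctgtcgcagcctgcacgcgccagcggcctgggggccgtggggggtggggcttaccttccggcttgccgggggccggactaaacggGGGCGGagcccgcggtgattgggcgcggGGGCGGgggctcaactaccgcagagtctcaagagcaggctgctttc
Bax: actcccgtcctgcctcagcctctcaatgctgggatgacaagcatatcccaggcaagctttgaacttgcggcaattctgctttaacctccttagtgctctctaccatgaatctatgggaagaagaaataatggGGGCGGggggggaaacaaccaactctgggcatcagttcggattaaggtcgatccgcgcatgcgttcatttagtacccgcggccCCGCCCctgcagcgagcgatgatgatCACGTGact

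RefSeq windows were matched by symbol for 9 members, giving 15 windows because some genes have more than 1 start, and some windows of Bbc3 overlap. A GC box (GGGCGG, both strands) was found in 10 of the 15 windows, belonging to Bcl2, Bcl2l11, Mcl1, Bax, Bid, Bad and Bbc3, and in 32.7% of the 32851 windows of the same length over all genes. The share of G and C bases was 47.6% to 81.6% in the member windows, against a median of 52.4% over all windows. Its part in the count of GC boxes was not tested. The letters CACGTG stood in 2 of the 15, in Bax and Bbc3, against 6.02% of all windows. The FOXO letters GTAAACA stood in 2, in Bcl2l11 and Bbc3, against 3.17% of all. The E2F letters TTTCGCGC or TTTGGCGC stood in 1 window, of Bcl2l1, against 0.654% of all, and CAGATGG, an E-box form bound by ATOH1, in 1 window, also of Bcl2l1, against 4.44%. Neither the GLI letters GACCACCCA (0.225% of all windows) nor the p53 response element (0.0639% of all windows) was found in these windows, each searched on both strands. Matches are letters in a window and describe neither binding nor regulation.

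Among the pro-survival members, Mcl1 was higher in tumors, Bcl2l1 was lower and Bcl2 did not pass the test. Mcl1 (ENSMUSG00000038612, mm10 chr3:95658721-95663176, plus strand) encodes a short-lived protein that binds BIM, NOXA and BAK. Its normalized counts were 12318, 11235 and 11739 in tumors and 8053, 7606 and 7632 in controls. Every tumor library lay above every control library, and the groups were tight (11764 ± 542 in tumors and 7764 ± 251 in controls, SD, n = 3 each). The log2 fold change was 0.60 ± 0.075 (SE), a 1.51-fold rise (adjusted p = 7.34e-05, limma; 95% interval 0.43 to 0.77 on the log2 scale).

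Bcl2l1 (ENSMUSG00000007659, chr2:152780668-152831728, minus strand) encodes BCL-XL, a long-lived pro-survival protein of neurons. Its normalized counts were 3632, 4125 and 3687 in tumors against 4429, 4967 and 4861 in controls. The highest tumor library lay below the lowest control library, by a small margin. The log2 fold change was -0.32 ± 0.086 (SE), 1.25-fold lower in tumors (adjusted p = 0.00939, limma; 95% interval -0.51 to -0.12), and with library totals as the scale the call was lost (log2 fold change -0.22, adjusted p = 0.0697).

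Bcl2 (ENSMUSG00000057329, chr1:106538178-106714274, minus strand), the founding member of the family, gave 1409, 1381 and 1500 normalized counts in tumors and 1210, 1323 and 1111 in controls. Tumors lay above controls in all libraries, with the lowest tumor close to the highest control. Its log2 fold change of 0.24 ± 0.099 (SE) missed the threshold (adjusted p = 0.0614, limma), with a 95% interval of 0.015 to 0.46. Bcl2 was called higher with library totals, with TMM factors, with edgeR under both gene filters, and without tumor library 2.

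Because each library holds all 3 pro-survival genes, their ratios within a library do not depend on its scale. The log2 ratio of Bcl2l1 to Bcl2 was 1.37, 1.58 and 1.30 in tumors and 1.87, 1.91 and 2.13 in controls, a difference of -0.56. The log2 ratio of Mcl1 to Bcl2 was 3.13, 3.02 and 2.97 in tumors and 2.73, 2.52 and 2.78 in controls, a difference of 0.36. The log2 ratio of Bax to Bcl2, an effector against a pro-survival gene, was 0.80, 1.01 and 0.56 in tumors and -0.20, -0.38 and 0.06 in controls, a difference of 0.97. Groups did not overlap for any of the 3 ratios. Each gave p = 0.1 in a two-sided exact permutation test over the 6 libraries (0.1 after adjustment over the 3 ratios), which is the smallest p that 3 libraries against 3 can give. These log2 ratios are of counts not divided by gene length, so their level includes the genes' lengths, while the differences between groups do not.

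Both effector members rose. Bax (ENSMUSG00000003873, chr7:45461695-45466898, minus strand), whose protein moves to mitochondria and forms pores when activated, had 2459, 2782 and 2210 normalized counts in tumors and 1054, 1014 and 1157 in controls. The lowest tumor value was far above the highest control value. The log2 fold change was 1.20 ± 0.11 (SE), a 2.30-fold rise (adjusted p = 6.52e-06, limma; 95% interval 0.96 to 1.45). Bak1 (ENSMUSG00000057789, chr17:27019810-27029009, minus strand) encodes the effector that resides on mitochondria. It had 1095, 1182 and 1187 normalized counts in tumors and 694.6, 642.0 and 693.9 in controls, again with no overlap. Its log2 fold change was 0.77 ± 0.10 (SE), a 1.70-fold rise (adjusted p = 8.94e-05, limma; 95% interval 0.55 to 0.99). Exons of Bak1 share 437 bases with exons of Ggnbp1 on the opposite strand (18.2% of Bak1 exon length), but Ggnbp1 averaged only 134.7 normalized counts in tumors and 143.4 in controls. No source used here says whether counting used strand, so reads in such stretches cannot be assigned to one gene with certainty.

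The BH3-only members were split: Bid, Pmaip1 and Bcl2l11 rose, while Bbc3 and Bad did not pass the test. Bid (ENSMUSG00000004446, chr6:120891930-120916853, minus strand) links death receptors to mitochondria, since caspase-8 cuts its protein into an active form. It had 893.3, 875.1 and 1008 normalized counts in tumors and 131.8, 111.8 and 145.4 in controls, from 3188 reads in the tumor libraries and 348 in the control libraries. The lowest tumor library held several times the highest control library. The log2 fold change was 2.83 ± 0.15 (SE), a 7.12-fold rise (adjusted p = 2.12e-07, limma; 95% interval 2.49 to 3.18), the largest among the 10 members, and 3.83% of all genes tested had a higher log2 fold change. Bid and Bcl2l13 lie tail to tail on opposite strands and share 628 exon bases, 17.7% of the exon length of Bid. Bcl2l13 was also higher in tumors (7309 ± 227 normalized counts in tumors and 3364 ± 84.1 in controls, SD, n = 3 each), and how many of the reads counted for Bid came from the shared stretch was not tested.

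Bcl2l11 (ENSMUSG00000027381, chr2:128126038-128162547, plus strand) encodes BIM, which binds all pro-survival proteins and is needed for much of the death of developing neurons. It had 2217, 2338 and 2290 normalized counts in tumors and 829.7, 783.5 and 700.4 in controls. Tumor libraries were close to one another, with a coefficient of variation of 2.67%, against 8.50% in controls. The log2 fold change was 1.57 ± 0.097 (SE), a 2.96-fold rise (adjusted p = 5.14e-07, limma; 95% interval 1.35 to 1.79).

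Pmaip1 (ENSMUSG00000024521) encodes NOXA, which binds MCL1 and promotes its degradation. Its normalized counts were 297.5, 200.3 and 276.5 in tumors and 74.8, 85.6 and 84.5 in controls, from 905 reads in tumors and 218 reads in controls. Every tumor library was above every control library, and tumor library 2 was the lowest of the tumors. The log2 fold change was 1.63 ± 0.22 (SE), a 3.10-fold rise (adjusted p = 0.000109, limma; 95% interval 1.14 to 2.12). Pmaip1 had the widest spread among the tumors of the 10 members, with a coefficient of variation of 19.8% and a highest value 1.49 times the lowest.

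Bbc3 (ENSMUSG00000002083, chr7:16309616-16318205, plus strand) encodes PUMA, a p53-induced BH3-only protein. It had 148.0, 195.6 and 150.5 normalized counts in tumors and 122.8, 134.3 and 134.7 in controls. Tumors lay above controls without overlap, but tumor library 2 stood above the other tumors and the log2 fold change of 0.32 ± 0.20 (SE) was not called (adjusted p = 0.192, limma; 95% interval -0.13 to 0.77). Without tumor library 2 it was 0.19. Bad (ENSMUSG00000024959, chr19:6941861-6951898, plus strand) encodes a BH3-only protein that survival kinases inactivate by phosphorylation. It had 658.6, 700.2 and 606.0 normalized counts in tumors and 600.8, 613.5 and 669.4 in controls, and the groups overlapped. Its log2 fold change was 0.06 ± 0.11 (SE), not called (adjusted p = 0.675, limma), with a 95% interval of -0.20 to 0.32, so a 2-fold change lay outside the interval. Exons of Bad share 524 bases with exons of Gpr137 on the opposite strand (20.5% of Bad exon length), and Gpr137 averaged 584.9 normalized counts in tumors and 1371 in controls.

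Levels of different genes were compared only per kb of exon, using the union of annotated exons in GENCODE M21. On this scale Mcl1 was the highest member in both groups, at 3442 ± 159 normalized counts per kb in tumors and 2271 ± 73.5 in controls (SD, n = 3 each, as for the values per kb below). Bax was next in tumors, at 1576 ± 182 per kb, followed by Bcl2l1 at 832 ± 58.9. In controls the order of this pair was the other way round, with Bcl2l1 at 1036 ± 62.2 per kb and Bax at 682 ± 46.7. Bak1 came after these genes in each group, at 480 ± 21.5 per kb in tumors and 281 ± 12.5 in controls. Bcl2l11, Bid and Bad followed in tumors at 284 ± 7.58, 261 ± 20.4 and 256 ± 18.5 per kb, and neighbours in this stretch of the order overlapped between libraries. In controls Bad came after Bak1, at 245 ± 14.3 per kb, while Bcl2l11 was at 96.1 ± 8.16 and Bid at 36.5 ± 4.77. Bcl2 had 156 ± 6.83 per kb in tumors and 133 ± 11.6 in controls. The lowest pair in tumors was Pmaip1 at 94.5 ± 18.7 and Bbc3 at 77.6 ± 12.6 per kb, which overlapped. The lowest in controls were Bbc3 at 61.5 ± 3.18, Bid, and Pmaip1 at 29.9 ± 2.17 per kb, and no neighbours overlapped in the order of the controls.

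The list of other BCL2 family genes held 16 genes, of which 13 could be tested. Of these 7 were called higher, 3 were called lower and 3 were not called, with a median log2 fold change of 1.12. Over all genes tested 62.1% were called, 30.6% higher and 31.5% lower. Under the alternative settings the number of these other family genes called higher ranged from 5 to 9. The widest differences were in Hrk, Bok and Bcl2l15, none of them among the 10 members. Hrk encodes Harakiri, a BH3-only protein of neurons. Its normalized counts were 8085, 7566 and 7219 in tumors and 541.6, 521.9 and 516.5 in controls, a 14.4-fold rise (log2 fold change 3.85 ± 0.084 SE, adjusted p = 1.26e-09, limma). Per kb of exon, Hrk had 1343 normalized counts in tumors and 92.8 in controls, so in tumors it was the highest BH3-only gene on that scale. Bok, an effector that can act independently of the other pore formers, had 2866, 3157 and 2395 normalized counts in tumors and 293.7, 306.7 and 342.2 in controls, an 8.87-fold rise (log2 fold change 3.15, adjusted p = 3.46e-08, limma).

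Bcl2l2 encodes BCL-W, a pro-survival protein of mature neurons and testis. It had 2758, 3305 and 3471 normalized counts in tumors and 8201, 8842 and 8945 in controls, 2.74-fold lower in tumors (log2 fold change -1.45 ± 0.099 SE, adjusted p = 9.31e-07, limma). The summed level of the 8 mature granule neuron markers was also lower, between 22336 and 37522 normalized counts in tumors and between 260702 and 290051 in controls, and its part in the difference was not tested. Bcl2l15 had 272.3, 231.5 and 512.6 normalized counts in tumors and 4156, 3780 and 3506 in controls, 11.9-fold lower in tumors (log2 fold change -3.57 ± 0.25 SE, adjusted p = 1.03e-06, limma). Tumor library 3 was the highest of the tumors, and the groups did not overlap.

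Bcl2l12 and Bcl2l13 rose. Bcl2l12 averaged 333 ± 120 normalized counts in tumors and 51.7 ± 11.1 in controls (6.19-fold, adjusted p = 2.48e-05, limma), with tumor library 2 the highest at 471.5. Exons of Bcl2l12 share 572 bases with exons of Gm15545, 28.9% of the exon length of Bcl2l12. Gm15545 averaged 214.7 normalized counts in tumors and 64.7 in controls. How many of the reads counted for Bcl2l12 came from the shared stretch was not tested. Bcl2l13, a receptor for mitophagy, rose 2.17-fold (adjusted p = 7.04e-07, limma). Bnip3, a mitophagy receptor induced by hypoxia, averaged 1459 ± 441 normalized counts in tumors and 4404 ± 201 in controls, 3.11-fold lower in tumors (adjusted p = 2.94e-05, limma). Its relative Bnip3l averaged 10600.1 ± 1428 in tumors and 8838 ± 545 in controls (SD, n = 3 each) and was not called (adjusted p = 0.0653, limma). Bmf, a BH3-only protein tied to the cytoskeleton, averaged 1110 ± 210 in tumors and 873 ± 72.2 in controls and was not called (adjusted p = 0.0655, limma). Bik had 16 reads in all tumor libraries and 6 in all control libraries and was not called.

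The Bcl2a1 copies encode a pro-survival protein of blood cells and are nearly identical, so how reads were split among them is uncertain. Bcl2a1b averaged 82.7 ± 35.6 normalized counts in tumors and 22.1 ± 4.70 in controls (log2 fold change 1.80, adjusted p = 0.00219, limma). The calls for Bcl2a1d (27.3 ± 5.88 in tumors and 8.82 ± 5.74 in controls, adjusted p = 0.0248) and Bcl2a1a (22.8 ± 9.26 in tumors and 8.13 ± 8.40 in controls, adjusted p = 0.0480, limma) depended on the setting: Bcl2a1d was not called under 4 of 18 alternatives and Bcl2a1a under 12, in each case counting 1 that filtered the gene out before testing. The 3 copies together gave 181.3, 103.9 and 113.1 normalized counts in tumors and 33.5, 44.0 and 39.6 in controls, from 476 reads in tumors and 104 in controls, and the groups did not overlap. The 8 microglia and macrophage markers, none at 0 in either group, summed to between 22350 and 24795 normalized counts in tumors and between 4895 and 6056 in controls. Their part in the rise of the Bcl2a1 copies was not tested. Bcl2a1c and Bcl2l10 had no read in any library, and Bcl2l14 had 6 reads in tumors and none in controls and was not tested.

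**Figure D2:**
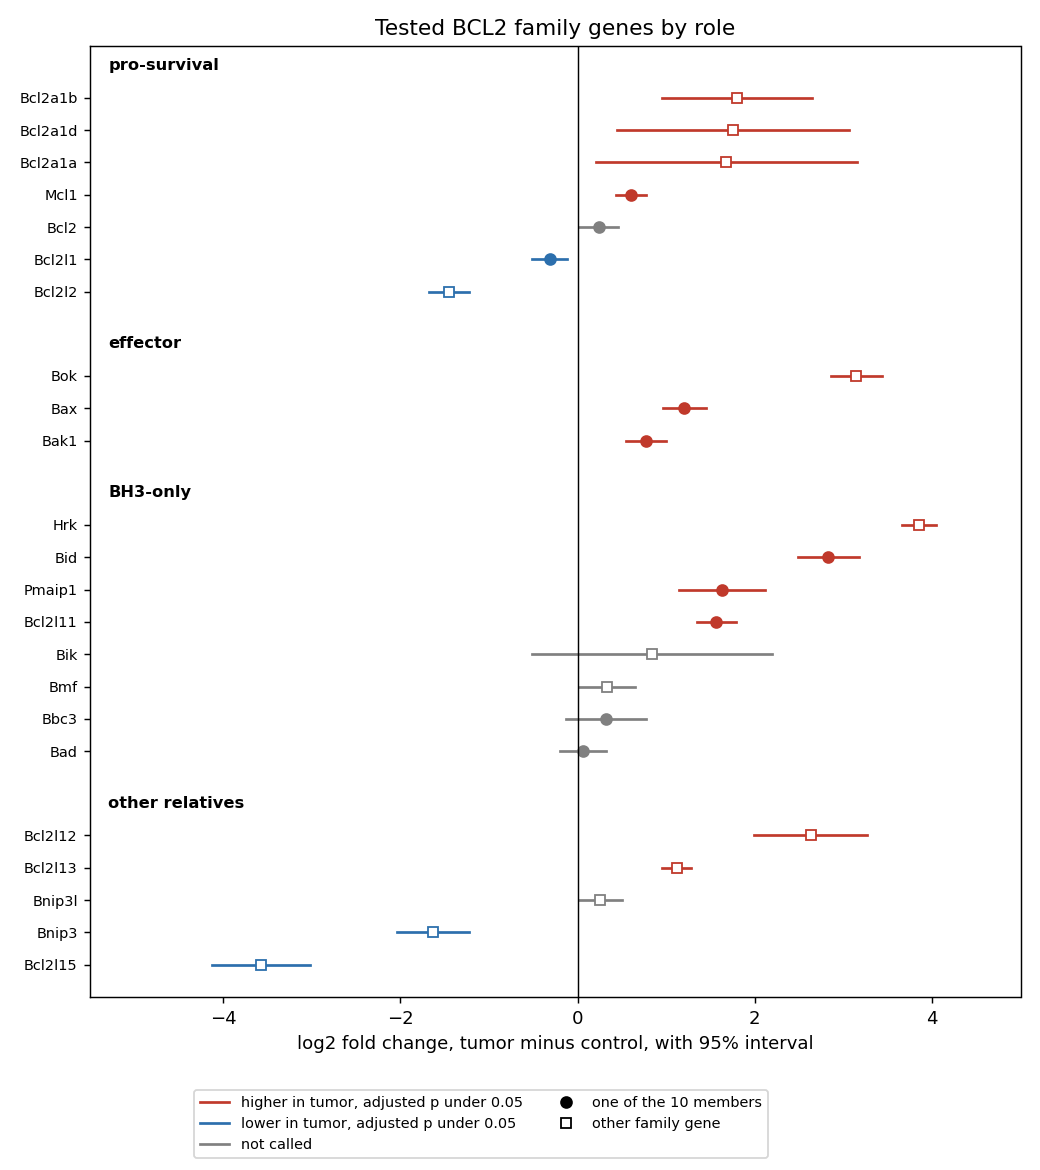
Log2 fold change (tumor minus control, on log2(value + 1)) of each tested BCL2 family gene, grouped by role, with its 95% interval from limma. Filled circles are the 10 members and open squares the other family genes, in red where called higher in tumors, blue where called lower and grey where not called. Hrk at 3.85 and Bok at 3.15 stand furthest to the right and Bcl2l15 at -3.57 furthest to the left.

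Summing levels per kb by role gave totals of mRNA, which say nothing of protein amount and carry no test here. The pro-survival genes Bcl2, Bcl2l1, Bcl2l2 and Mcl1 summed to 5142 ± 55.9 normalized counts per kb in tumors and 5382 ± 78.2 in controls (SD, n = 3 each, as below), a ratio of 0.955. Every tumor sum of these genes (5078 to 5180) lay below every control sum (5292 to 5434). The Bcl2a1 copies, also pro-survival, were left out. Without them tumor library 1 summed to 5168 normalized counts per kb and control library 1 to 5292. Bcl2a1b alone had 151 normalized counts per kb in tumor library 1 and 20.5 in control library 1. The order of these 2 libraries is therefore not kept with the copies counted. Library totals as the scale shifted the median log2 fold change of all genes by 0.090, and the sums were not recomputed on that scale. Without Bcl2l2, the pro-survival members Bcl2, Bcl2l1 and Mcl1 summed to 4430 ± 109 per kb in tumors and 3440 ± 22.7 in controls, a ratio of 1.29, so the direction of the sum depends on whether Bcl2l2 is counted. The makeup of the sum of 4 genes differed between the groups. Mcl1 made up 66.9 ± 2.56% in tumors and 42.2 ± 1.99% in controls, and Bcl2l2 made up 13.9 ± 1.65% in tumors and 36.1 ± 1.18% in controls. Bcl2l1 made up 16.2% in tumors and 19.2% in controls, and Bcl2 made up 3.04% in tumors and 2.47% in controls.

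The effectors Bax, Bak1 and Bok summed to 3580 ± 388 normalized counts per kb in tumors and 1134 ± 67.3 in controls, a ratio of 3.16. Bok made up 42.5 ± 1.56% of this sum in tumors and 15.1 ± 0.663% in controls. The 8 BH3-only genes summed to 2530 ± 72.1 per kb in tumors and 730 ± 5.10 in controls, a ratio of 3.47. Hrk made up 53.1 ± 1.96% of the BH3-only sum in tumors and 12.7 ± 0.371% in controls, whereas Bad made up 10.1 ± 0.497% in tumors and 33.6 ± 2.01% in controls. Bid made up 10.3 ± 1.11% in tumors and 5.01 ± 0.680% in controls.

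The pro-survival sum over the BH3-only sum was 2.01, 1.98 and 2.12 in tumors and 7.29, 7.39 and 7.44 in controls. Over the effector sum it was 1.45, 1.28 and 1.62 in tumors and 4.74, 5.05 and 4.48 in controls. With the 10 members alone the same ratios were 4.55 ± 0.148 in tumors and 7.33 ± 0.246 in controls for the BH3-only genes, and 2.17 ± 0.215 in tumors and 3.58 ± 0.228 in controls for the effectors. All of these ratios were lower in each tumor library than in each control library, and the values without Hrk, Bok, Bcl2l2, Bmf and Bik had the groups closer together.

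**Figure D3:**
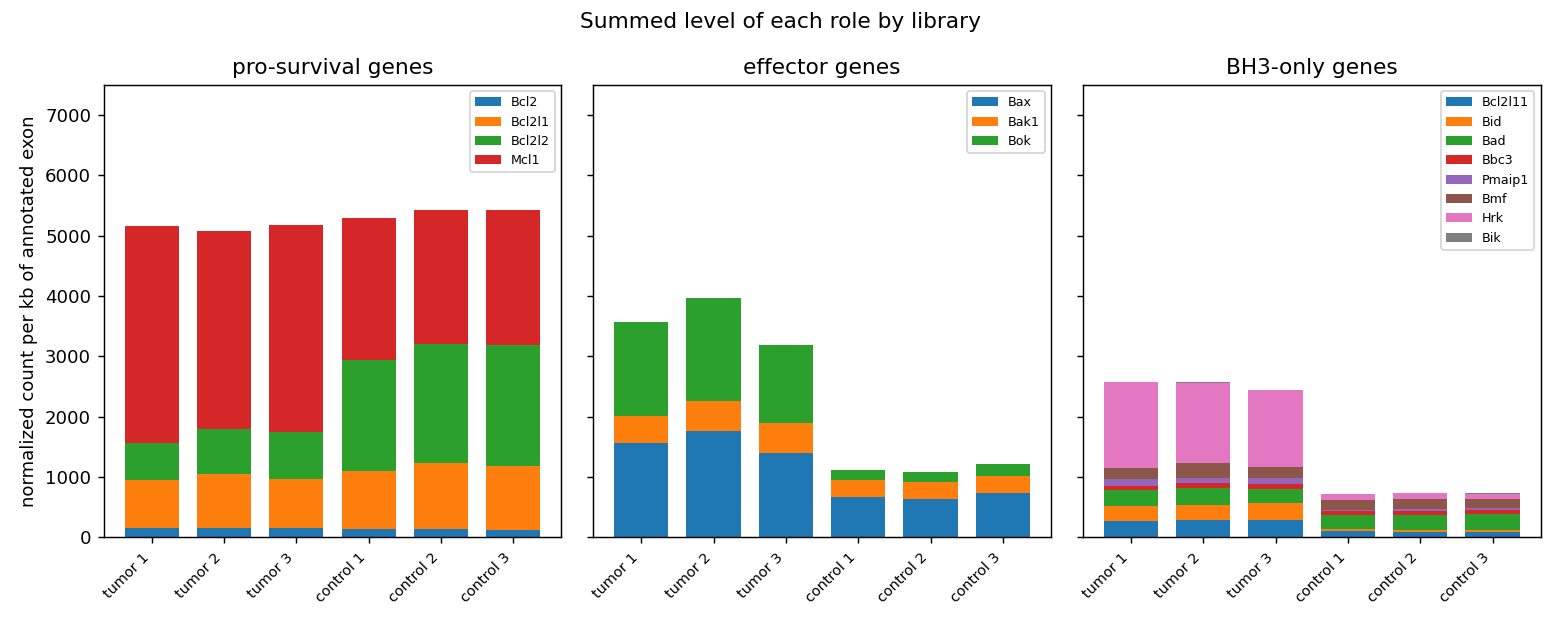
Stacked bars of normalized counts per kb of annotated exon (linear y axis from 0) for the pro-survival genes, the effector genes and the BH3-only genes, 1 bar per library, tumors left of controls. The pro-survival bars include Bcl2l2 and leave out the Bcl2a1 copies. They average 5142 per kb in tumors and 5382 in controls, with each tumor bar below each control bar. Without Bcl2l2 the averages are 4430 in tumors and 3440 in controls. The effector and BH3-only bars are taller in tumors and hold more Bok and Hrk.

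Among themselves the members did not share 1 pattern. Likeness was measured as the root mean square difference of the log2 values over the 6 libraries, each centred on the mean of the gene. The closest pair of members was Mcl1 and Bak1, at 0.117, followed by Bad and Bbc3 at 0.163, and Bcl2l11 was nearest to Pmaip1 at 0.232. Bid had no near neighbour among them, with Pmaip1 the nearest at 0.635. Among 12504 tested genes with a mean of at least 100 normalized counts, those nearest to each member were Cbfb (0.0795) and Rbbp8 (0.0940) for Bid, Satb1 (0.0383) and Zbtb1 (0.0481) for Bcl2l11, and Snrpd2 (0.0734) and Mrto4 (0.0739) for Pmaip1. Gpn2 (0.0386) and Parp1 (0.0467) were nearest to Bax, and Chd1 (0.0392) and Fubp3 (0.0415) to Bak1. Elp2 (0.00813) and Parg (0.0198) were nearest to Mcl1, Tro (0.0291) and Ndufa11 (0.0304) to Bcl2l1, and Ttc21b (0.0406) and Zzz3 (0.0417) to Bcl2. For Bad these were Lman2 (0.0196) and Atg7 (0.0219), and for Bbc3 Src (0.0278) and Flot1 (0.0292). With 6 libraries in 2 groups, the measure mostly reflects the size of the difference between the groups.

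Genes that act before, beside and after the family were described by list, and the counts below stand beside 62.1% of all genes tested that were called, 30.6% higher and 31.5% lower, a share that several lists come close to. Of 16 genes of the caspases and apoptosome, which carry out death after cytochrome c release, 8 were called higher and 4 lower (median log2 fold change 0.39). Birc5, which encodes survivin, a protein of dividing cells, averaged 4469 ± 579 normalized counts in tumors and 23.5 ± 2.90 in controls (182-fold, adjusted p = 1.14e-09, limma). Xiap, a caspase inhibitor, was 1.79-fold lower in tumors (8792 ± 920 in tumors and 15658 ± 379 in controls, SD, n = 3 each). Cycs, the gene of cytochrome c, was 1.78-fold lower (4207 ± 798 in tumors and 7393 ± 373 in controls), with processed pseudogenes that can share its reads.

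Of 10 genes of the death receptor pathway, which reaches the mitochondrion through BID, 5 were called higher and 1 lower (median 0.57). The receptors Ngfr (1585 ± 334 normalized counts in tumors and 176 ± 23.1 in controls, 8.89-fold) and Tnfrsf1a (1107 ± 133 in tumors and 386 ± 7.65 in controls, 2.85-fold) rose. Casp8, the caspase that cuts BID, averaged 453 ± 30.8 in tumors and 243 ± 49.6 in controls (1.89-fold higher, adjusted p = 0.00130, limma). Fasl, at 2.81 ± 3.20 in tumors and 10.4 ± 4.89 in controls, was called lower, but its groups overlapped, and it was not called under 9 of 18 alternatives, 2 of which filtered it out before testing.

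Of 13 transcription factors and their regulators upstream of the family, 9 were called higher and 4 lower (median 0.48). Mycn, which with MYC can raise BH3-only genes, averaged 10935 ± 939 normalized counts in tumors and 234 ± 22.6 in controls (46.5-fold, adjusted p = 9.21e-10, limma), and Myc averaged 1725 ± 315 in tumors and 66.9 ± 3.42 in controls (25.2-fold). Trp73 was 4.46-fold lower (43.6 ± 10.6 in tumors and 196 ± 35.4 in controls). Foxo3, whose protein can induce Bcl2l11 and Bbc3, was 1.99-fold lower (5344 ± 130 in tumors and 10635 ± 375 in controls, adjusted p = 1.53e-06, limma).

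The list of 12 kinases and ubiquitin enzymes acting on BCL2 proteins had 4 genes higher and 4 lower (median -0.04). Fbxw7, a ubiquitin ligase subunit that marks MCL1 for degradation, was 3.62-fold lower (2582 ± 305 normalized counts in tumors and 9307 ± 283 in controls, adjusted p = 1.49e-07, limma). Cdc20, a cell cycle protein also reported to act on MCL1 and BIM, rose 62.8-fold (4470 ± 335 in tumors and 70.6 ± 11.1 in controls). Pim1, a kinase that phosphorylates BAD, rose 5.81-fold (2831 ± 240 in tumors and 485 ± 21.7 in controls), and Rps6ka1, another BAD kinase, was 5.64-fold lower (912 ± 228 in tumors and 5037 ± 106 in controls).

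Of 14 genes whose products bind BCL2 proteins, 1 was called higher and 7 lower (median -0.24). The gene called higher was Dynll1, a dynein light chain of the type that holds BIM and BMF (14215 ± 2198 normalized counts in tumors and 6043 ± 316 in controls, 2.34-fold). Itpr1, a calcium channel bound by BCL2 and abundant in Purkinje cells, was 8.90-fold lower (19019 ± 7624 in tumors and 160280 ± 11267 in controls, adjusted p = 2.22e-06, limma). The 8 Purkinje cell markers, which include Itpr1 itself, summed to between 42750 and 82185 normalized counts in tumors. In controls they summed to between 505123 and 510025. The sum is therefore not independent of Itpr1, and the part of Purkinje cells in the difference was not tested. Itpr3 was 4.05-fold lower (82.2 ± 27.1 in tumors and 325 ± 34.7 in controls). Ywhaz, of the 14-3-3 proteins that hold phosphorylated BAD, was called lower (17278 ± 1810 in tumors and 21530 ± 1305 in controls, adjusted p = 0.0160, limma), a call that 2 alternatives lost.

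**Figure D4:**
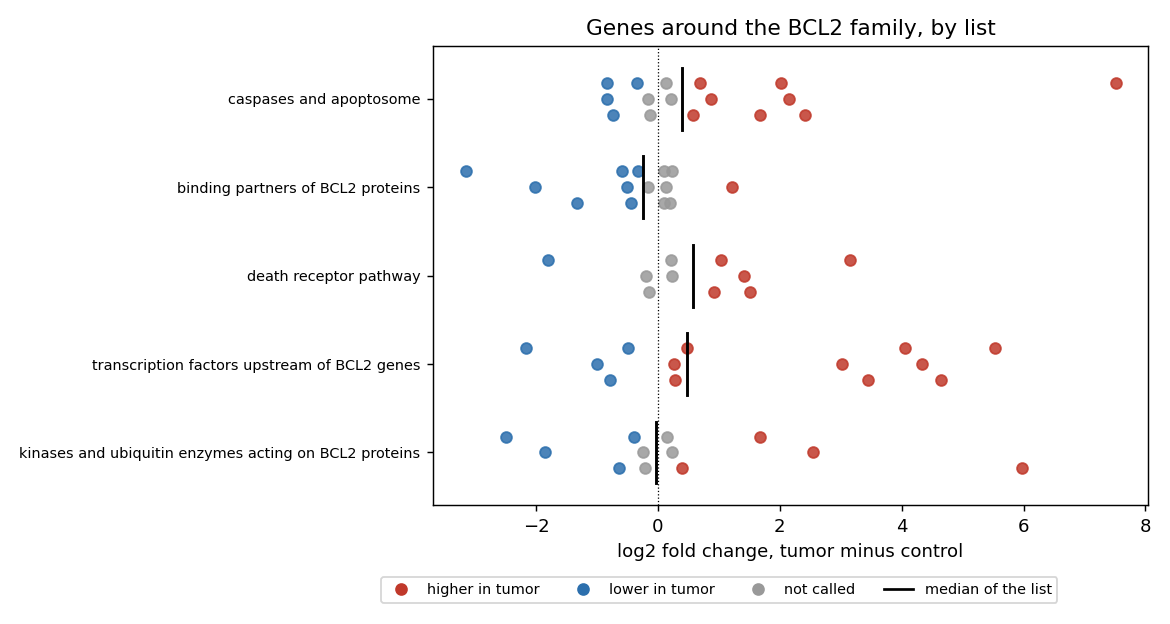
Log2 fold change (tumor minus control, on log2(value + 1)) of each tested gene in 5 lists around the family, 1 point per gene, with the median of each list as a black bar. Red points were called higher in tumors, blue points lower, and grey points were not called. The points furthest to the right are Birc5 at 7.51, Cdc20 at 5.97 and Mycn at 5.54, and the lowest is Itpr1 at -3.15.

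In the authors' deposited table, which covers all genes, 7 of the 10 members had an FDR under 0.05. The 3 without were Bcl2 (0.169), Bbc3 (0.307) and Bad (0.883), in the authors' deposited table. Its values come from the same libraries, and its share of all genes with an FDR under 0.05 was not counted. The limma fit called 62.1% of all genes tested. A shorter list of 2654 genes, also an authors' deposited table, holds 1 member, Bid, with a log2 fold change of 2.87 and an FDR of 0.0239.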

How the data were processed

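RNA was sequenced in 3 tumor and 3 control libraries, grouped by sample title. The submitters' processing notes list edgeR, featureCounts, Bowtie2 2.2.4 and FastQC, and build mm10, without roles. Annotation release, counting options and strand use were not found in these sources. For 43629 genes the authors' deposited table gives a signal in each library, which is reads over a size factor (0.841 to 1.38), as found from the values: 100% were whole multiples of the value of 1 read, to within 1e-06. The fold, log2 fold change, p-value and FDR columns that the authors deposited entered no test.

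Values were tested as log2(value + 1) with limma 3.58.1 (R 4.3.3, trended variance). The 22117 genes above 1 in 3 or more libraries were kept, and p-values were adjusted over all of them by the Benjamini-Hochberg method. This scale understates changes of low genes, and folds are ratios of geometric means of value + 1. On the recovered reads, edgeR 4.0.16 (quasi-likelihood, TMM) called 13411 genes, 6800 higher and 6611 lower, where limma called 13738. DESeq2 1.42.0, other pseudocounts, filters and scalings, and leaving out each library were also run. The fit was tested on simulated data. A floor of 3 counts equals 2.17 to 3.57 normalized counts, which covers counting error only. No 2 libraries agreed within sampling noise (chi-square per degree of freedom of 10.9 or more).

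Members, gene lists and tests were chosen with earlier results of these data known. Named genes are all members and other family genes, the 2 called genes at each end of every other list, the 2 genes nearest to each member, and Smo, Gli1 and Atoh1; an item named by this rule is not reported here. Exon lengths came from GENCODE M21 and promoter windows from RefSeq.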

Additional observations from a re-analysis of the deposited data

How the results depend on the processing

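The 16 results were recomputed under 18 alternatives where these applied, and 251 of 258 values counted as unchanged. For a single member this meant the same direction and side of the threshold. A count of called genes was judged only by staying near the main count, and a ratio had no threshold. With library totals, for example, 7 members were called higher and 0 lower, against 6 and 1 in the main fit. The other 7 values, all of single members, were as follows. Bcl2, not called, was called higher with library totals (log2 fold change 0.34, adjusted p = 0.0130), TMM factors (0.26, adjusted p = 0.0383), edgeR on the same genes (0.25, adjusted p = 0.0487), edgeR with its own filter (0.26, adjusted p = 0.0377), and limma without tumor library 2 (0.26, adjusted p = 0.0497). Leaving out 1 library at a time gave Bcl2 log2 fold changes from 0.18 to 0.30. Bcl2l1 lost its call with library totals (-0.22, adjusted p = 0.0697). Bad, not called, changed sign with upper-quartile factors (-0.0498, adjusted p = 0.733). The cause was not tested, but upper-quartile factors shifted the median log2 fold change of all genes by -0.11, and gave 6081 genes higher and 7617 lower.

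Between 11409 and 13794 genes, 7 and 8 members, and 8 and 12 other family genes were called over the alternatives. Called members of the caspase list numbered 8 to 9 higher and 3 to 6 lower, of the binding partners 1 to 4 and 6 to 8, of the death receptor pathway 5 and 0 to 1, of the transcription factors 7 to 9 and 4, and of the kinases and ubiquitin enzymes 4 to 6 and 3 to 6. This check of the lists was chosen after seeing the data. Same-numbered libraries deviated from their group means with correlations of -0.083 to 0.045, and differently numbered ones with -0.066 to 0.11. No pairing by number was seen, but with 3 libraries per group this check cannot exclude it. A replicate block gave 13687 genes and 7 members called, and 12 other family genes, adding Bmf and Bnip3l.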

Other observations

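Some further genes of the machinery that the BCL2 family controls are given here, chosen after their values were seen. Apaf1, the scaffold of the apoptosome, averaged 3228 ± 75.7 normalized counts in tumors and 729 ± 33.0 in controls (SD, n = 3 each, as for all values here), a log2 fold change of 2.15 (adjusted p = 3.33e-08, limma). Casp9, the caspase it activates, averaged 1692 ± 55.9 in tumors and 1887 ± 55.1 in controls and was not called (adjusted p = 0.124, limma). Casp2, an initiator caspase that can cut BID, averaged 5736 ± 121 in tumors and 1794 ± 88.4 in controls (log2 fold change 1.68, adjusted p = 8.43e-08, limma). Dynll2, which like Dynll1 encodes a dynein light chain, averaged 20330 ± 3120 in tumors and 50550 ± 291 in controls, a log2 fold change of -1.33 (adjusted p = 4.48e-06, limma), against 1.22 for Dynll1.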
